A study of Mus musculus with 4 samples.

Results

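The 39 immediate early and dissociation response genes are a list fixed by name, not by their values in these data. It holds 39 of the 46517 genes counted, and each of the 39 was matched to 1 gene row. They were read in single blood vascular endothelial cells (BECs) from the ear dermis of female adult C57Bl/6 mice (C57BL/6J in the methods of the study), sorted as live CD31+/CD45-/Lyve1- cells and processed with Smart-seq2, a full-length method without molecular identifiers. All wells therefore share 1 group: unperturbed wild-type animals, aged 12 to 26 weeks by the labels (the methods of the study give another range), whose ears went through 20 minutes of enzymatic dissociation at 37 °C before sorting. There were 2 replicates of 2 plates (A and B) with 384 wells each, and the labels name a pool of 6 mice without saying whether each replicate was its own pool, so single animals could not be told apart. No undissociated or transcription-blocked sample was analysed here, so no level below can be set against that of the intact tissue.

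Immediate early genes are switched on within minutes of a stimulus without new protein synthesis, through factors already present in the cell such as the serum response factor with its Elk partners, the cAMP response element binding protein Creb1 and NF-kB. Their products are transcription factors, such as the AP-1 and Egr families, and inhibitors that end the response, such as the RNA-binding protein Zfp36 and the Dusp phosphatases. In endothelium they are known to respond to growth factors, shear stress and inflammatory cytokines, and in single-cell work on solid tissue they are known to be induced by warm enzymatic dissociation.

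The promoters of 32 of the 39 genes were found by symbol among the RefSeq promoters of GRCm38.p6; *Egr1*, *Egr3*, *Ier2*, *Nfkbiz*, *Myc*, *Bhlhe40* and *Cebpd* were not matched. Below are the 250 bases before the annotated start of 6 members that varied together between wells, described further on, at chr7:28379229-28379478 for *Zfp36*, chr12:85473640-85473889 for *Fos*, chr8:84978749-84978998 for *Junb*, chr1:134079156-134079405 for *Btg2*, chr15:101266596-101266845 for *Nr4a1* and chr17:26508473-26508722 for *Dusp1*. The *Fos* and *Nr4a1* promoters are on the plus strand and the other 4 on the minus strand, and each is written 5′ to 3′ along the gene. Capitals mark the cAMP response element half-site TGACG on either strand (CGTCA on the other), the CArG box bound by the serum response factor, and the NF-kB site.
Zfp36: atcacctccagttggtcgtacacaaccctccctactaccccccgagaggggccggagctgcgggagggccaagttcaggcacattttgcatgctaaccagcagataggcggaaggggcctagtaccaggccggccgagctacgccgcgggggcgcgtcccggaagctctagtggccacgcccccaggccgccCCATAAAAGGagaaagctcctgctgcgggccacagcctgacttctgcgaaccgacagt
Fos: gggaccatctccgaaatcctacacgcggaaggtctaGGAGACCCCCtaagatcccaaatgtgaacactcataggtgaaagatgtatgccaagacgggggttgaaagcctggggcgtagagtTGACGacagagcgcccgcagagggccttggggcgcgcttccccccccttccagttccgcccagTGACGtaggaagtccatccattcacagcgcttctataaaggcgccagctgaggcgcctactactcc
Junb: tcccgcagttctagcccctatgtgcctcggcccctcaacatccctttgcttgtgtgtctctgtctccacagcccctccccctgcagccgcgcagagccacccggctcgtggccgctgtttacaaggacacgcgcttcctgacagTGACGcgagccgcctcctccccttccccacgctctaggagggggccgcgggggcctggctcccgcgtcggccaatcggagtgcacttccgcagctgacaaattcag
Btg2: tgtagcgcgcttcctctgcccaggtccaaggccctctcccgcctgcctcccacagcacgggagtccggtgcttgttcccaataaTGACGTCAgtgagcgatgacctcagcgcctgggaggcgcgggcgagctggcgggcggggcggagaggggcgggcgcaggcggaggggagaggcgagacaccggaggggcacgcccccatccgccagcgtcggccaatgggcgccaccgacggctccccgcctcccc
Nr4a1: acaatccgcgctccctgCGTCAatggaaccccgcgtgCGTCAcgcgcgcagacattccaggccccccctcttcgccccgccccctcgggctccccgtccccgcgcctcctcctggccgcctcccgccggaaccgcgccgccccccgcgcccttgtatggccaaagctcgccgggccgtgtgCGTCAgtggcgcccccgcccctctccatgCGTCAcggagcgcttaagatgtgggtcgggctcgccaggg
Dusp1: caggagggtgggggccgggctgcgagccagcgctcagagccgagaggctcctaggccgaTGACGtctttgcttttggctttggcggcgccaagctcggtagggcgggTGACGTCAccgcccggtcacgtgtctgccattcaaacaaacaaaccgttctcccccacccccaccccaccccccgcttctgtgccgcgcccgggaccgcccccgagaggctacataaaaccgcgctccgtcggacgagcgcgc
Over 300 bases (250 before to 50 after the start, any listed promoter of a gene, both strands), the half-site TGACG lay in 17 of the 32 members and in 23.0% of all 27025 genes with a promoter. The full element TGACGTCA, which contains the half-site, lay in 4 members (*Btg2*, *Dusp1*, *Ccnl1* and *Maff*) and in 2.03% of genes. The NF-kB site lay in 9 members, among them *Fos*, *Nfkbia* and *Tnfaip3*, and in 5.14% of genes, and the CArG box in 3 members (*Egr2*, *Zfp36* and *Dusp5*) and in 1.81% of genes. The EGR site GCGNGGGCG lay in 11 members and 6.27% of genes, and the AP-1 site TGANTCA in 2 members (*Tnfaip3* and *Csrnp1*) and 8.97% of genes. The members' promoters were also richer in G and C, with a median of 64.7% against 52.7% over all 32851 promoters, and the part of base composition in these shares was not tested. Genes with several listed promoters had more chances of a match. The half-site of *Egr2*, *Sgk1* and *Maff*, and the full element of *Maff*, were absent from their first listed promoter. The part of the number of promoters in these shares was not tested. A match is a stretch of letters and not a measured binding site.

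Of 1536 wells, 701 were kept as BECs, 338 from replicate 1 and 363 from replicate 2, if 2 or more of the endothelial genes *Kdr*, *Cdh5* and *Pecam1* had a read and if none of 5 genes of lymphatic, leukocyte and mural cells reached 100 CPM (reads of a gene scaled to a common total of gene reads per well). The replicates stood apart: the median kept well held 4606 and 4441 detected genes on the plates of replicate 1 and 2549 and 2636 on those of replicate 2, and spike-in RNA took 0.321% and 0.308% against 1.48% and 1.93% of its reads. Leiden clusters made without the 39 genes, other response genes and heat shock genes placed 58 wells in an artery-like, 172 in a capillary-like and 207 in a vein-like class. At the next higher resolution the vein-like class held 106 wells, and 124 wells with no vein marker formed an unnamed cluster with *Per2* and *Rasal1* among its leading genes, which also led the vein-like class used here. Another leading gene of that class, *Rgs16*, correlated with the summed level of the 39 genes between wells (0.40 and 0.38 in replicates 1 and 2). *Rgs16* was not among the genes left out of the clustering, so the vein-like class may not be independent of the response level. At the resolution used here the wells outside the 3 classes stayed unnamed, including a cluster of 136 that carried 6 mural, 5 lymphatic and 5 fibroblast markers. Endothelial markers were present in every class of both replicates, at 6329 to 9288 summed CPM over 8 genes. In the unnamed wells they were at 7396 and 4379 CPM in replicates 1 and 2. Mural markers, summed over 9 genes, were at 928 to 1599 CPM in the classes of replicate 1 and 448 to 573 CPM in those of replicate 2. Their part in the results below was not tested. Values are therefore given for each replicate, and differences between replicates carry no p-value, since the plates of a replicate are not separate samples of animals.

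Together the 39 genes took a large and very uneven share of the RNA of a BEC. The mean share of gene reads over kept wells was 2.42% on plate 1A (plate A of replicate 1), 2.58% on plate 1B, 2.13% on plate 2A and 1.47% on plate 2B. Over replicates the mean was 2.15% ± 0.505 (SD, n = 2). Both plates of replicate 1 were above both plates of replicate 2, and plate 2B was the lowest. In wells of the named classes alone the means were close, at 2.64% in replicate 1 and 2.58% in replicate 2. The median there was still lower in replicate 2. Unnamed wells had means of 1.89% and 1.16%, and were 62 of 338 and 202 of 363 kept wells. Those of replicate 2 held a median of 4.07% spike-in and 8.81% mitochondrial reads, against 0.676% and 2.02% in its named classes. Their part in the replicate gap was not tested. In single kept wells of replicate 1 the share ran from 0.162% through a median of 1.96% to 8.51%. In replicate 2 it ran from 0.0120% through a median of 0.530% to 12.1%. The wells of replicate 2 were thus lower at the median and wider apart, with an upper quartile 10.5 times the lower against 4.21 times in replicate 1. A share under 1% was found in 93 of 338 wells of replicate 1 (27.5%, exact 95% binomial interval 22.8 to 32.6%) and in 225 of 363 wells of replicate 2 (62.0%, 56.8 to 67.0%). These intervals cover counting error only.

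**Figure D1:**
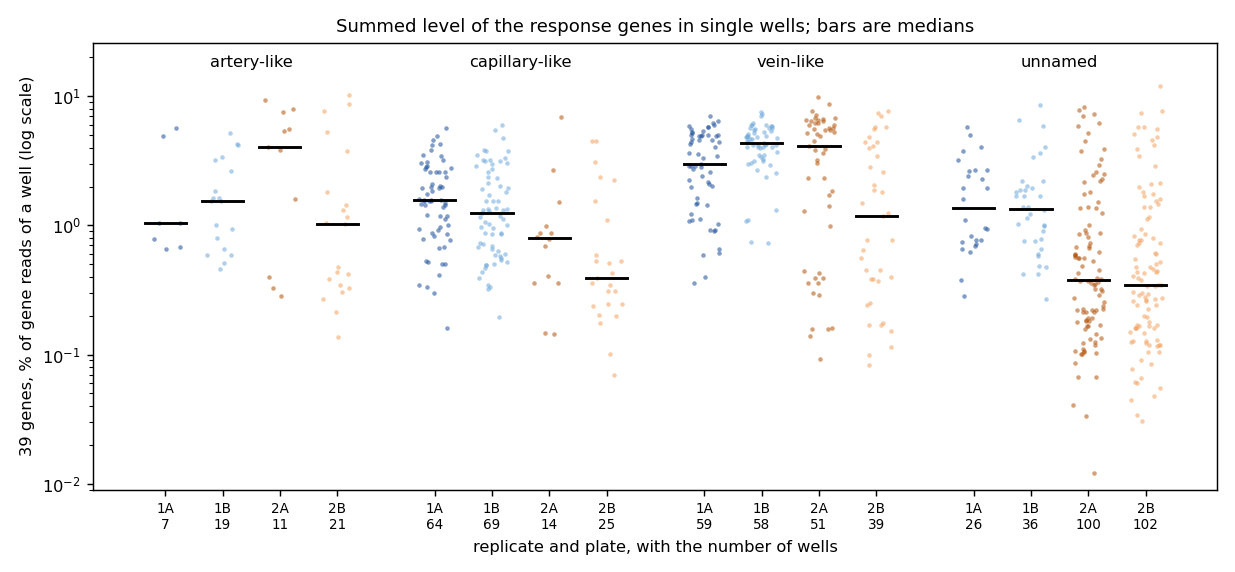
Summed reads of the 39 genes as a percent of the gene reads of a well (log axis), 1 point per kept well, by class, replicate and plate, with the number of wells under each column and black bars for medians. Vein-like wells of replicate 1 have medians of 2.97% on plate A and 4.37% on plate B. Capillary-like wells of replicate 2 lie mostly under 1%. Artery-like and vein-like wells of replicate 2 spread from 0.136% to 10.2% and from 0.0832% to 9.87%.

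The summed share was related to the measures of RNA content of a well, more so in replicate 2. Its Spearman correlation with the reads of a well was 0.27 in replicate 1 (338 wells) and 0.41 in replicate 2 (363 wells). That with the spike-in share was -0.34 and -0.43, and that with the mitochondrial share -0.04 and -0.48. Wells with a higher response share thus held less spike-in RNA per read in both replicates, and fewer mitochondrial reads in replicate 2. The correlation with plate column was 0.06 and 0.00, and that with plate row -0.00 and -0.10. These are descriptions across wells that share plates and dissociation, and the part of cell size or quality in the share was not tested.

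A few genes made up most of the response. The 8 highest members by CPM gave 58.0% of the summed level in replicate 1 and 58.3% in replicate 2. Per kilobase of exon, *Fos* was the highest at 1477 ± 441 CPM per kb (SD of the 2 replicates), followed by *Ier3* (835 ± 412), *Ier2* (633 ± 334), *Zfp36* (555 ± 223), *Nfkbia* (537 ± 263), *Junb* (471 ± 176), *Btg2* (420 ± 3.87) and *Gadd45g* (390 ± 52.4). From *Ier3* down to *Gadd45g*, neighbours in this order differed by less than their spread between replicates. At the other end *Egr3* (1.16 CPM per kb), *Pim1* (3.09), *Cebpb* (4.52), *Maff* (5.26) and *Dusp5* (7.35) were the lowest. Shares of wells were compared after each well was thinned to 20000 reads, which 337 wells of replicate 1 and 294 of replicate 2 allowed, leaving out 1 and 69 shallower wells. A read was then found in at least 50% of wells for 24 members in replicate 1 and 12 in replicate 2, against 29 and 18 members without thinning. The thinned share was lower in replicate 2 for 35 of 39 members. Averaged over the members the thinned share was 57.6% and 38.5%. The same shares over all genes were not computed. Kept wells of replicate 2 held fewer detected genes in general, as given above, so these gaps cannot be read as particular to the members. A cell type that lacks these genes could not be given for comparison, since they are inducible in nearly all cells. In wells left out for mural genes and low *Pecam1*, their summed share had a median of 0.675% (8 wells of replicate 1) and 0.247% (38 wells of replicate 2).

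**Figure D2:**
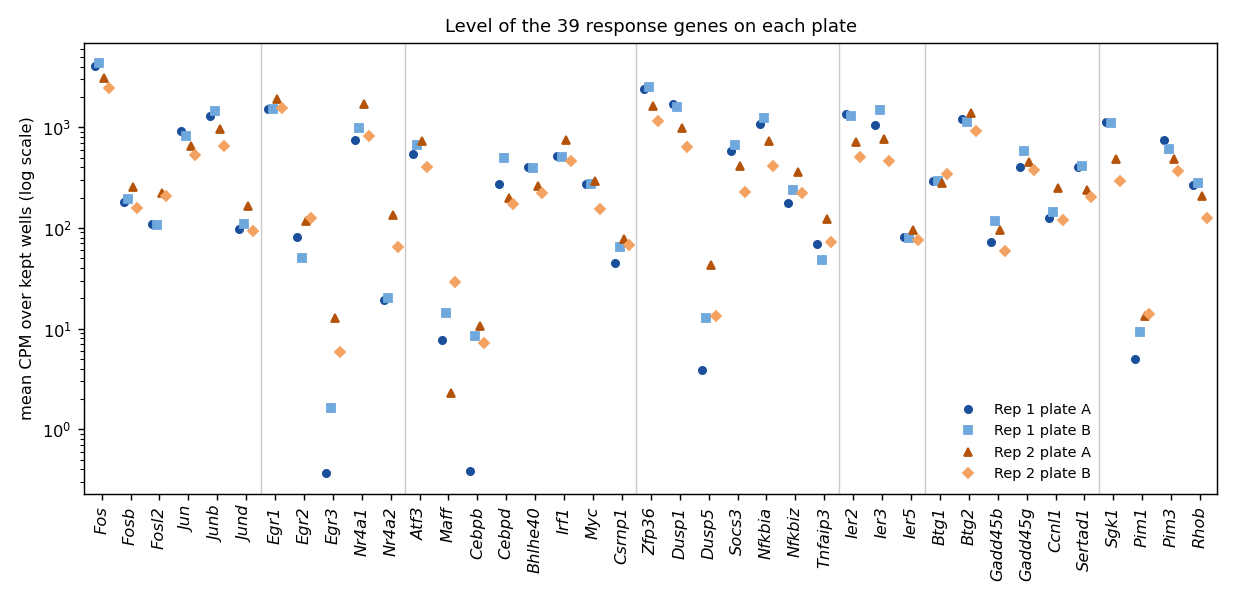
Mean CPM over the kept wells of each plate (log axis) for the 39 genes, ordered by role, with 1 symbol per plate and vertical lines between roles. *Fos* lies at 2431 CPM or more on each plate, while *Egr3*, *Pim1*, *Cebpb*, *Maff* and *Dusp5* lie at 42.8 CPM or less.

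Among the AP-1 subunits, which pair as Fos-Jun dimers on AP-1 sites, *Fos* (chr12:85473890-85477273) was at 4067 and 4327 CPM on the plates of replicate 1 and 3067 and 2431 CPM on those of replicate 2. It was the most widely read member: after thinning in 100.0% of wells of replicate 1 and 89.5% of replicate 2 (85.4 to 92.7%). The median well held 3562 CPM of *Fos* in replicate 1 but 514 CPM in replicate 2, and the highest wells 22412 and 56012 CPM. The mean of replicate 2 thus came from fewer, stronger wells. *Junb* (chr8:84974484-84978718), the Jun subunit with the highest level, was at 1294, 1436, 963 and 644 CPM on plates 1A, 1B, 2A and 2B. *Jun* was at 911, 817, 656 and 531 CPM on the same plates, with the antisense gene *Junos* overlapping it. Reads were counted without a stated strand, so the pair could not be told apart. *Fosb*, *Fosl2* and *Jund* were lower, at means of 197, 161 and 116 CPM, and were read after thinning in 32.0 to 51.9% of wells.

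The Egr factors are zinc finger proteins and the Nr4a factors orphan nuclear receptors, and both families were led by 1 gene. *Egr1* was at 1503, 1503, 1912 and 1535 CPM on plates 1A, 1B, 2A and 2B, so that plate 2A stood above the other plates. *Nr4a1* was at 740, 978, 1714 and 819 CPM, again highest on plate 2A. *Egr2* averaged 92.6 CPM and was read in 19.9% and 12.6% of thinned wells. *Egr3* was at 0.364 and 1.61 CPM on the plates of replicate 1 and 12.7 and 5.90 CPM on those of replicate 2, read in 0.890% and 4.08% of thinned wells. *Nr4a2* was at 19.4 and 20.1 against 133 and 64.8 CPM. *Egr3* and *Nr4a2* thus had the largest gaps between replicates of the 39 genes, both towards replicate 2.

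The other transcription factors spanned a wide range. *Atf3*, a stress-induced repressor, averaged 582 CPM, *Irf1*, which drives interferon-responsive genes, 556 CPM, *Bhlhe40* 317 CPM, *Cebpd* 289 CPM and *Myc* 247 CPM. *Csrnp1* (64.2 CPM), *Maff* (13.6 CPM) and *Cebpb* (6.79 CPM) were low, and *Maff* varied from 2.31 to 28.9 CPM between the plates of replicate 2. *Myc* was read in 52.8% and 31.0% of thinned wells. The spans of *Atf3*, *Bhlhe40*, *Irf1*, *Csrnp1*, *Cebpb* and *Cebpd* overlap other annotated genes, as do those of *Junb*, *Dusp1* and others, 12 of the 39 in all, so part of their reads may belong to those genes.

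The feedback inhibitors included some of the most highly read members. *Zfp36* (chr7:28376784-28380253), which destabilises mRNAs with AU-rich elements, was at 2418, 2522, 1614 and 1162 CPM on plates 1A, 1B, 2A and 2B. It was read in 99.7% and 77.6% of thinned wells, behind *Fos* in both replicates. *Dusp1*, a phosphatase that inactivates MAP kinases, was at 1689, 1580, 983 and 631 CPM, whereas *Dusp5* did not exceed 42.8 CPM on any plate. *Nfkbia*, the NF-kB inhibitor and itself an NF-kB target, was at 1073, 1241, 723 and 415 CPM. *Socs3*, an inhibitor of JAK-STAT signalling, averaged 475 CPM, *Nfkbiz* 250 CPM and *Tnfaip3*, the A20 inhibitor of NF-kB signalling, 77.5 CPM. For *Zfp36*, *Dusp1*, *Nfkbia* and *Socs3* both plates of replicate 1 were above both of replicate 2, and for *Tnfaip3* and *Dusp5* both were below.

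The remaining members ranged from low to high levels. *Ier2* was at 1356, 1294, 709 and 504 CPM and *Ier3* at 1048, 1467, 772 and 466 CPM on plates 1A, 1B, 2A and 2B, while *Ier5* averaged 82.7 CPM. *Btg2*, an antiproliferative gene and p53 target, was at 1204, 1121, 1380 and 922 CPM and had the smallest gap between replicates. *Gadd45g*, a growth arrest gene, was at 404, 583, 452 and 377 CPM. *Sertad1*, *Btg1*, *Ccnl1* and *Gadd45b* averaged 313, 302, 160 and 86.8 CPM. *Sgk1*, a kinase induced by serum and glucocorticoids, was at 1117 and 1100 CPM in replicate 1 against 484 and 292 CPM in replicate 2, the largest gap towards replicate 1. *Pim3* averaged 547 CPM, *Rhob*, a small GTPase with a short-lived product, 219 CPM and *Pim1* 10.4 CPM.

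Between replicates the members moved in both directions. Mean CPM on both plates of replicate 1 was above both of replicate 2 for 15 members, such as *Sgk1*, *Ier2* and *Fos*, where 24.6% of the 20902 genes with reads showed that order. The reverse order held for 9 members, such as *Egr3*, *Nr4a2* and *Fosl2*, against 24.3% of genes. The median log2 ratio of replicate 1 to replicate 2 was 0.01 for the members and -0.06 for all genes. In the wells of named classes the counts were 4 and 12, and 4 and 5 members kept their order in both sets of wells. The share over all genes was not computed in the named classes, so these counts cannot be read as particular to the members. The replicate gap thus depended on which wells were counted, and the share of unnamed wells was larger in replicate 2 (202 of 363 against 62 of 338).

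The comparison of artery-, capillary- and vein-like wells asked whether the response differed along the vascular tree. The summed share was lowest in capillary-like wells on each of the 4 plates by the mean: 1.86%, 1.67%, 1.26% and 1.005% on plates 1A, 1B, 2A and 2B. Artery-like wells were at 2.12%, 1.93%, 4.21% and 2.23%, from 7 to 21 wells per plate. Vein-like wells were at 3.29%, 4.31%, 3.81% and 2.21%. Vein-like wells were the highest on both plates of replicate 1 and artery-like wells on both plates of replicate 2. By medians, capillary-like wells were lowest in replicate 2 (0.510% against 1.24% in artery-like and 2.47% in vein-like wells). In replicate 1 artery-like wells were as low, at 1.29% against 1.43% in capillary-like and 4.16% in vein-like wells. A share under 1% was found in 8.55% of vein-like wells of replicate 1 (exact interval 4.17 to 15.2%) and 36.1% of its capillary-like wells (27.9 to 44.9%). In replicate 2 these shares were 36.7% (26.8 to 47.5%) and 74.4% (57.9 to 87.0%). Vein-like wells were also the most deeply read, with medians of 186113 and 224792 reads in replicates 1 and 2 against 135746 and 103501 in capillary-like wells. Mural markers summed to 1599 and 448 CPM in capillary-like and 928 and 573 CPM in vein-like wells. The part of either in the class order was not tested.

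Gene by gene, counts were summed per replicate and class and tested in edgeR with the replicate as a block (14986 genes, 39 members tested). At an adjusted p under 0.05 no member was called in artery-like, capillary-like or vein-like wells against the other classes. Of all genes, 0.0133%, 0.0% and 0.0% were called, the 2 genes called in artery-like wells being the artery markers *Gja4* and *Fbln5*. At an unadjusted p under 0.05, 4, 18 and 14 members passed. The members were 3 higher in artery-like wells (2.48% of all genes), 18 lower in capillary-like wells (1.51%) and 14 higher in vein-like wells (4.88%). With the DESeq2 Wald test no member was called in artery-like wells (6.11% of genes called). *Csrnp1* and *Dusp5* were called lower in capillary-like wells (2.07%) and *Myc* higher in vein-like wells (1.79%). *Dusp5* was near the floor, at 0.498 and 0.758 CPM in capillary-like sums of replicates 1 and 2. Its artery-like sums were at 40.3 and 0.200 CPM, so that order reversed in replicate 2, and its vein-like sums at 15.6 and 67.0 CPM. Counts were also simulated for the capillary-like comparison. At the median spread of all genes (dispersion 1.006) edgeR recovered 0 of 100 genes changed by log2 -2 or -4. DESeq2 there recovered 8 and 50, and also called 158 genes that had not been changed. At a dispersion of 0.05 both tests recovered all 100 at either change. The spread of the members themselves was not simulated, so an absent call does not show that classes were alike. The classes came from the same wells as the tests, and *Myc*, though left out of the clustering, had one of the 10 highest folds in the cluster named vein-like.

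By sign the members were mostly below the other classes in capillary-like wells and above them in vein-like wells, although none passed the edgeR test. In capillary-like wells 37 of 39 members were below the other classes in the fit, as were 7304 of the 14986 genes tested, with a median log2 difference of -0.99 against 0.03 over all genes. In 22 members the capillary-like sums were the lowest of the 3 classes in both replicates, as in 10.1% of all genes. In vein-like wells 39 of 39 members were above the other classes, as were 9042 of the 14986 genes tested, with a median of 0.76 against 0.26 over all genes. The vein-like class may not be independent of the response level, as given above, and the part of this was not tested. The excess over all genes did not hold on plate A alone (0.65 for the members against 0.78 for all genes) or with a limit of 10 CPM for the genes of other cell types (0.51 against 0.70). In 13 members the vein-like sums were the highest in both replicates, as in 14.2% of all genes. In artery-like wells 29 of 39 members were higher, with a median of 0.30 against -0.22, but only 14 were higher in replicate 1 alone and 35 in replicate 2 alone.

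**Figure D3:**
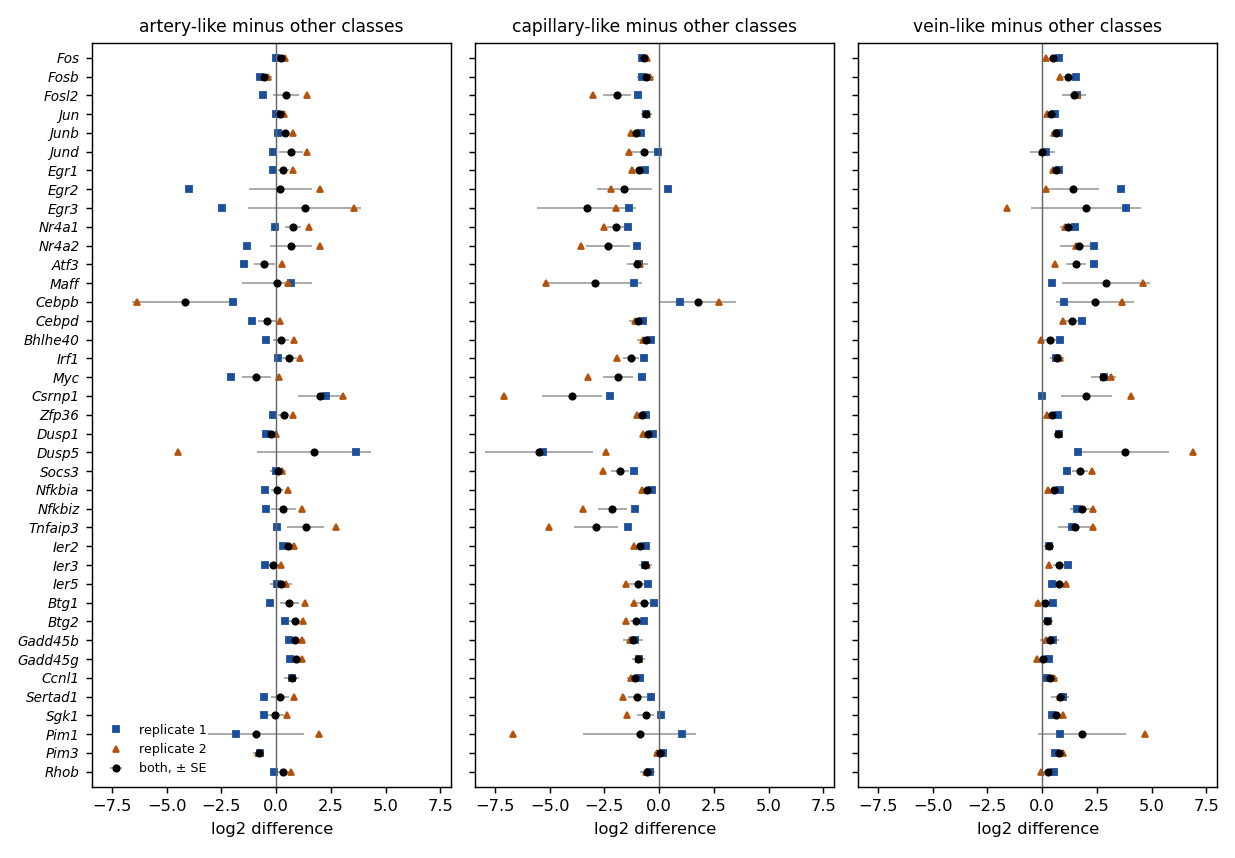
Log2 difference of the 39 genes between each class and the mean of the other classes: black points with bars for the edgeR fit and its SE over both replicates, and coloured symbols for each replicate alone, which carry no test. In the capillary-like panel 37 of 39 fitted values lie below 0, in the vein-like panel 39 of 39 lie above 0, and the replicates differ most in the artery-like panel.

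In capillary-like wells the median log2 difference was -1.97 for the Egr and Nr4a genes (5 genes; -1.03 in replicate 1 alone and -2.18 in replicate 2 alone) and -1.80 for the feedback inhibitors (7 genes; -1.10 and -2.42), so the order of these groups was not the same in each replicate. It was -1.13 for the other transcription factors, -1.03 for the growth arrest and cyclin genes, -0.86 for the Ier genes, -0.69 for the AP-1 subunits and -0.58 for the kinases with *Rhob*, which stood at 0.12 in replicate 1 alone and -1.04 in replicate 2 alone. *Nr4a1*, scaled with edgeR's TMM factors, was at 418 CPM in capillary-like sums of replicate 1, against 774 in artery-like and 1585 in vein-like sums. In replicate 2 it was at 460 CPM, against 2977 and 2372. The groups did not overlap, with a log2 difference of -1.97 ± 0.41 (SE) and an adjusted p of 0.955 by edgeR. *Junb* was at 916 and 695 CPM in capillary-like sums of the replicates, against 1403 and 1772 in artery-like and 1941 and 1598 in vein-like sums (-1.06 ± 0.24). *Btg2* was at 990 and 859 CPM, against 1644 and 3041 in artery-like and 1512 and 1951 in vein-like sums (-1.07 ± 0.27). *Socs3* was at 370 and 99.6 CPM in capillary-like sums and at 1069 and 929 CPM in vein-like sums, but its artery-like sum of replicate 2 (371 CPM) lay close to the capillary-like sum of replicate 1. *Fos* was at 2700 and 2850 CPM, against 3883 and 4499 in artery-like and 5565 and 4017 in vein-like sums (-0.69 ± 0.19). Of the 2 members not below 0, *Pim3* was at 735 and 596 CPM in capillary-like, 491 and 423 CPM in artery-like and 888 and 964 CPM in vein-like sums, and *Cebpb* did not exceed 15.1 CPM in any sum.

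In vein-like wells the median log2 difference was 1.77 for the other transcription factors, 1.51 for the feedback inhibitors and 1.39 for the Egr and Nr4a genes. Replicate 1 alone gave 0.91, 1.15 and 2.35 for these groups and replicate 2 alone 2.04, 2.27 and 0.49, so their order rested on the replicate. It was 0.75 for the Ier genes, 0.70 for the kinases with *Rhob*, 0.56 for the AP-1 subunits and 0.28 for the growth arrest and cyclin genes over both replicates. *Myc* was at 589 and 662 CPM in vein-like sums of replicates 1 and 2, against 61.8 and 166 in artery-like and 110 and 34.4 in capillary-like sums. The vein-like sums did not overlap the others, with a log2 difference of 2.78 ± 0.58 (SE) and an adjusted p of 0.788 by edgeR. *Cebpd*, another C/EBP family factor, was at 697 and 387 CPM against at most 271 CPM in the other sums (1.38 ± 0.38). *Dusp1* was at 2116 and 1899 CPM against at most 1366 CPM (0.74 ± 0.21). *Atf3* was at 1173 and 1023 CPM in vein-like sums, but the artery-like sum of replicate 2 reached 891 CPM against 200 CPM in replicate 1.

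Other response genes were described in the same way, likewise with no edgeR call. Of 40 other immediate early and dissociation genes 38 were tested, with a median log2 difference of -0.997 in capillary-like and 0.78 in vein-like wells. For 14 heat shock genes the medians were -0.36 and 0.31, and for 33 upstream kinases and transcription factors, such as *Srf*, *Creb1* and *Rela*, -0.27 and 0.20, the latter below the median of all genes. The 16 tested NF-kB and cytokine targets of endothelium had medians of -2.20 and 1.71. The DESeq2 test called 4 of them higher in vein-like, 2 lower in capillary-like and 2 lower in artery-like wells, and of the other immediate early genes 2, 3 and 2 in the same order and directions. That list includes *Sele* and *Selp*, which also mark the vein-like class, so its values are not independent of the classes. Clusters made without these targets were nearly the same in size. They held 111 and 90 vein-like wells in replicates 1 and 2, against 117 and 90 here. Capillary-like wells numbered 135 and 37, against 133 and 39. *Sele* and *Selp* still led the vein-like cluster, so these clusters cannot show what the targets contributed. With them 37 of 39 members were lower in capillary-like wells and 37 higher in vein-like wells, relative to the other classes. No member was called.

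Between wells the members varied together. Of the 39, 29 had a read in at least 20% of thinned wells of both replicates, as did 2329 genes in all. The median Spearman correlation over the 406 pairs of members was 0.31 in replicate 1 (337 wells) and 0.36 in replicate 2 (294 wells), against 0.02 and 0.04 over all pairs of genes. A correlation of at least 0.3 was found in 52.0% and 69.0% of member pairs and in 0.131% and 0.188% of all pairs. The strongest pairs were *Zfp36* with *Egr1* (0.77 and 0.74 in replicates 1 and 2), *Zfp36* with *Fos* (0.74 and 0.76) and *Fos* with *Egr1* (0.74 and 0.74). All of these are descriptions across wells that share plates and dissociation.

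**Figure D4:**
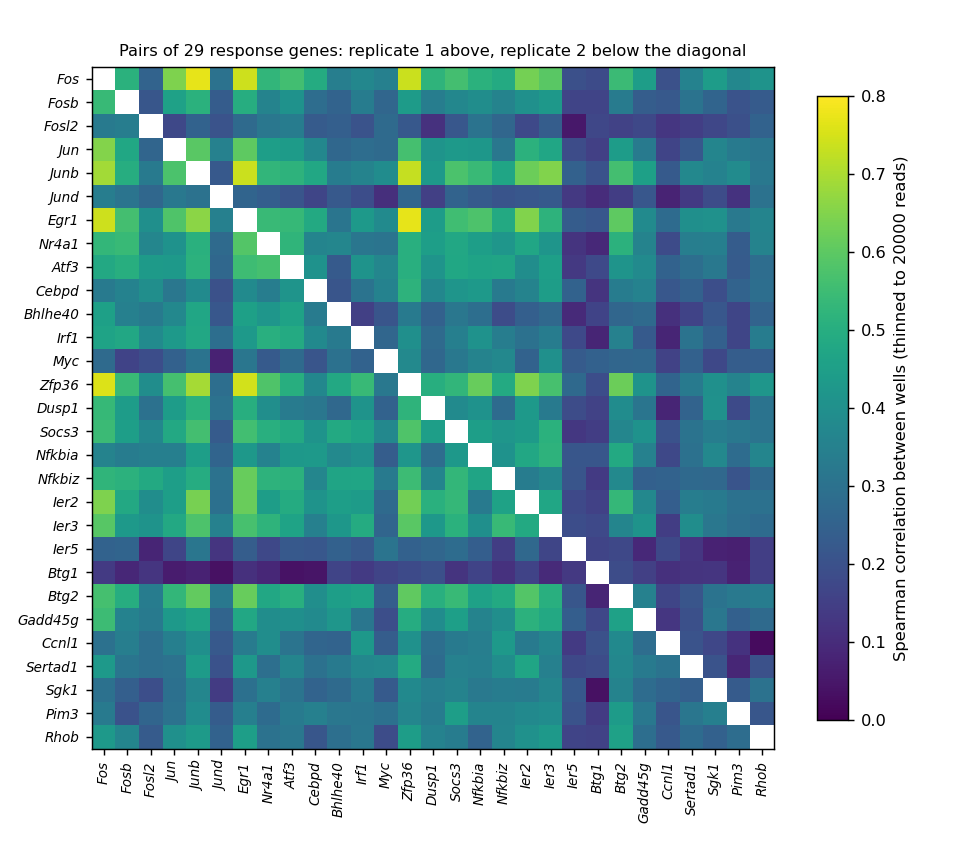
Spearman correlation between wells for each pair of the 29 members read widely enough, with replicate 1 above and replicate 2 below the diagonal and genes ordered by role. *Fos*, *Junb*, *Egr1*, *Zfp36* and *Ier2* form the brightest rows in both replicates, and *Btg1* and *Ier5* the darkest.

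Within wells, each member was compared with the sum of the other members. *Zfp36* followed it most closely, at a correlation of 0.84 in replicate 1 and 0.80 in replicate 2, then *Fos* (0.84 and 0.73), *Egr1* (0.83 and 0.72), *Junb* (0.82 and 0.72) and *Ier2* (0.70 and 0.67). The 15 genes of the 2329 with the highest mean correlation were all members, and 26 of 29 members reached 0.3 in both replicates, as did 1.93% of all genes. The 6 genes whose promoters are printed above were all among these 15. The half-site TGACG is marked in *Fos*, *Junb*, *Btg2*, *Nr4a1* and *Dusp1*, while *Zfp36* lacks it in this window and shows a CArG box. Of the other genes among these 15 with a promoter, *Fosb* and *Atf3* had the half-site, and *Jun*, *Ier3*, *Socs3* and *Nfkbia* did not. A link between the half-site and joint variation was not tested. *Ccnl1* (0.28 and 0.40), *Ier5* (0.25 and 0.26) and *Btg1* (0.23 and 0.12) followed the sum of the other members least. *Myc* stood at 0.42 and 0.31. Genes with more reads are counted with less error, and the part of read level in this order was not tested.

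The joint variation was also present inside classes. Over member pairs the median correlation was 0.25 and 0.41 in artery-like wells of replicates 1 and 2 (26 and 30 wells), 0.23 and 0.26 in capillary-like wells (133 and 29) and 0.23 and 0.44 in vein-like wells (117 and 88). Over all gene pairs the same medians lay between 0.01 and 0.02. The values were lower than over all wells in replicate 1 and higher in artery- and vein-like wells of replicate 2. The pairs compared were not all the same. Members read widely enough numbered 29 over all wells, 29 in artery-like, 25 in capillary-like and 33 in vein-like wells.

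Outside all lists, genes with the highest mean correlation with the summed level included *Junos* (0.56 and 0.50), *Apold1* (0.52 and 0.51), *Rnd1*, *Gm17334*, *Gm26532*, *Ifrd1*, *Rgs16* and *Cdkn1a* (0.42 and 0.35). *Apold1* is known as an immediate early gene of endothelium, and *Cdkn1a* encodes the cell cycle inhibitor p21. *Junos* and *Gm17334* overlap *Jun* and *Irf1*, so their reads may be those of the members. Of the 18 other immediate early genes read widely enough, 4 reached 0.3 in both replicates, led by *Ppp1r15a* (0.49 and 0.53), which restarts translation after stress, and by the flow-responsive factor *Klf2* (0.36 and 0.44). Of 9 heat shock genes 2 did, *Hspa8* (0.41 and 0.43) and *Dnajb1* (0.34 and 0.35). Of 13 upstream genes only the stress factor *Atf4* did (0.47 and 0.43), and *Rela*, the main NF-kB subunit, stood at 0.09 and 0.07.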

How the data were processed

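The authors dissociated ear skin, sorted single BECs into plates and sequenced Smart-seq2 libraries with single 50-base reads. They deposited raw counts of reads per Ensembl gene and well; the submitters' processing notes name TopHat2 2.1.1, SAMtools 0.1.18, Subread 1.4.6-p5 and the build mm10 (GRCm38), and the annotation release and strand setting are not given in the sources used here. Duplicate reads had been removed, and without molecular identifiers reads are not independent molecules. Symbols and coordinates came from GENCODE vM21 (46005 of 46517 rows matched), and 92 spike-in rows were left out of totals and tests.

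Plates held 31864976 to 74739095 gene reads. Kept wells had at least 600 reads, 500 to 8000 genes, a read of 2 or more of 3 BEC genes and less than 100 CPM of *Kcnj8*, *Pdgfrb*, *Ptprc*, *Prox1* and *Lyve1* alike, a limit taken because 10 CPM leaves few wells of replicate 1; doublets were not called beyond the gene limit. CPM was scaled to the gene reads of a well. Wells were scaled with scran 1.30.0 and clustered with leidenalg 0.10.2 on 1000 variable genes and 15 components. Sums per replicate and class (genes reaching 10 counts in 2 or more of 6 sums) were tested with edgeR 4.0.16 (quasi-likelihood, TMM, replicate block, Benjamini-Hochberg over all genes, 2 residual degrees of freedom); DESeq2 1.42.0 and limma 3.58.1 were alternatives. The 3 classes of a replicate were sorted from the same cells, which pairs them, and their deviations from the class means correlated at 0.118, 0.0992 and 0.111 between classes. The tests were tested on simulated data. The members, gene lists and class markers were chosen with earlier results of these data known. All 39 members were described by role; members among the 8 highest per length, or among the 5 with the largest replicate gap, were given on each plate. Some genes whose pattern was like that of the members are not reported here. Nothing in the labels ties wells to animals, so p-values measure the spread between these sums, which may be technical.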

Additional observations from a re-analysis of the deposited data

Results flagged for a closer look

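For 3 of the 39 members 1 plate stood far from the other 3, out of 40 values tested (the members and their summed level) with Dixon's ratio of gap to range (95% critical value for 4 values). Chance flags about 1 in 20 such groups. *Egr1* was higher on plate A of replicate 2 (1912 CPM) than on the other plates (1503 to 1535 CPM), with a ratio of 0.922. *Irf1* was also higher on that plate, at 752 CPM against 466 to 512 CPM, with a ratio of 0.84. *Myc* was lower on plate B of replicate 2, at 154 CPM against 271 to 293 CPM, with a ratio of 0.838.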

How the results depend on the processing

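Of the 148 alternative values of the levels, shares, correlations and class comparisons, 124 stayed within their spread or within 1.5 times the count. The exceptions follow, and the cause was not tested. For levels, shares and correlations that spread is the SD of the 2 replicates. Their values without 1 replicate therefore lie within it whatever the data, and do not show stability. The mean summed share of 2.15% became 2.71% with a 10 CPM limit for the 5 genes of other cell types and 1.57% with scran size factors, and without 1 replicate it ran from 1.79 to 2.504%. The mean share of wells with a read, 48.1%, was 62.5% without thinning, and 38.5 to 57.6% without 1 replicate. The median correlation of members, 0.33 over replicates, was 0.38 with the 10 CPM limit, 0.29 without thinning, 0.27 with residuals of log CPM on depth, 0.24 in capillary-like wells only (chosen after seeing the data), and 0.31 to 0.36 without 1 replicate. Calls of members appeared with the 10 CPM limit (9 in artery-like and 10 in capillary-like wells, resting on 2, 4 and 6 wells of replicate 1 per class), on plate A alone (3 in artery-like and 3 in capillary-like wells: *Btg2*, *Egr1* and *Nr4a1*), with DESeq2 (2 in capillary-like and 1 in vein-like wells) and, for *Myc* in vein-like wells, without the low-count filter and in thinned wells (1 each). Apart from DESeq2, the shares of all genes called in these settings are not given here. Those counts of called members therefore cannot be read as particular to the members. Members higher in artery-like wells numbered 29, but 19 with reads of all 3 BEC genes required and 14 without replicate 2 (35 without replicate 1). Members lower in capillary-like wells numbered 34 to 38 and higher in vein-like wells 28 to 39 over all alternatives; without 1 replicate they were 34 to 38 and 33 to 38. Capillary-like sums were lowest in both replicates for 22 members and for 14 on plate B alone. Vein-like sums were highest for 13, but for 3 with the 10 CPM limit, 21 with 300 CPM, 28 with all 3 BEC genes, 23 at the next higher resolution, 20 without NF-kB targets in the clustering and 20 by mean CPM. Over all alternatives the median log2 difference of members ran from -1.81 to -0.51 in capillary-like, 0.50 to 1.03 in vein-like and -0.14 to 1.29 in artery-like wells. The matching counts by sign or order over all genes are not given here for the alternatives. The members' counts under the alternatives therefore cannot be read as particular to them. *Pim3* in artery-like wells reversed to 0.74 with the 10 CPM limit. Without the replicate block no member was called, and 28 members were higher in artery-like, 37 lower in capillary-like and 38 higher in vein-like wells.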

Other observations

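Genes that were lower in wells with a high summed level were of other kinds. The lowest correlations over 2329 genes were those of *AY036118* (-0.25 in replicate 1 and -0.44 in replicate 2), *Gm42418* (-0.24 and -0.43) and *CT010467.1* (-0.24 and -0.43), which are known to lie at ribosomal RNA sequence, and of the actin-binding gene *Tmsb4x* (-0.38 and -0.24). The mitochondrial ribosomal RNA *mt-Rnr2* stood at -0.19 and -0.43. *Fabp4*, a fatty acid binding protein and capillary marker, stood at -0.40 in replicate 1 and -0.06 in replicate 2.

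In the unnamed cluster with mural, lymphatic and fibroblast markers the median summed level was 0.909% in 33 wells of replicate 1 and 0.379% in 103 wells of replicate 2. In the other unnamed cluster it was 1.68% in 29 and 0.357% in 99 wells. In wells left out for *Lyve1* or *Prox1* at 300 CPM or more the medians were 0.729% (15 wells) and 0.334% (124 wells), with the highest wells at 3.90% and 8.24%.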
